A study of Mus musculus with 16 samples.

Results

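Potassium channel genes were described here across GABAergic cells of the newborn mouse brain. They were taken by name, as every gene on the array whose symbol starts with Kcn followed by letters and a number. This gave 81 of 29273 genes, measured by 113 of 41174 probes, and each gene is represented by its brightest probe. The cells came from GAD67-eGFP mice on a C57Bl/6 background at postnatal day 1 (P1), which carry green fluorescent protein in cells using the Gad1 gene. Fluorescent cells were sorted from whole brain (4 arrays, labelled as 4 biological replicates, 4 mice) and, from 6 dissected mice, from 4 regions with 3 arrays each: cerebellum, cortex, olfactory bulb and striatum. The labels do not say which animals were pooled in which sample, or whether regions share animals, so p-values measure only the spread between these samples. Every array set amplified cDNA of sorted cells (Cy5) against amplified cDNA of 1 shared reference, total brain of 4 mice also at P1 (Cy3), and the dyes were not swapped. A positive log2 ratio is a higher signal in the sorted cells than in total brain. The labels give Cy3 for the reference but also call it red, so the direction rests on the dye names.

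Potassium channels let potassium leave the cell and so set the resting potential, shape the action potential and limit firing. Voltage-gated channels open on depolarisation, inward rectifiers pass current near rest and include channels opened by G proteins, leak channels with paired pore domains hold the resting potential, and calcium-activated channels link firing to calcium entry. Silent subunits form no channel of their own and modify others, and auxiliary subunits change gating or transport to the membrane. In inhibitory neurons, Kv3 channels are known for supporting fast spiking, and many channel genes are still rising in level around birth.

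By symbol, 27 of the 81 genes were classed as voltage-gated pore-forming subunits, 8 as silent subunits, 14 as auxiliary subunits and 14 as inward rectifiers. A further 11 were classed as leak channels and 6 as calcium- or sodium-activated channels. Kcnq1ot1 is an RNA that overlaps Kcnq1 and encodes no channel. The gene named Kcnma3 on the array is Kcnu1 in the RefSeq table, and its place among the calcium- or sodium-activated channels rests on its symbol alone. Kcnv2, a silent subunit, was not well above background in either channel on any array and did not pass the filter, so 80 members were among the 27832 genes tested. Kcnj2 and Kcnv1 were not well above background in sorted cells on any array, and their values there are bounds.

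Median spot signals ran from 151 to 718 in the sorted channel and from 92 to 254 in the reference, with cortex replicate 1 the dimmest in the sorted channel, olfactory bulb replicate 3 the dimmest in the reference and cerebellum replicate 2 the brightest in both. The 8 GABAergic markers as a list averaged a log2 ratio of 0.80 to 1.05 on the whole brain arrays, 1.76 to 1.83 in olfactory bulb, 1.65 to 1.94 in cortex, 1.63 to 1.85 in striatum and 0.50 to 0.69 in cerebellum. Gad1 itself, read by 2 probes, lay at -1.61, -1.47, -1.39 and -1.56 on the 4 arrays labelled whole brain with its brighter probe, and between 0.58 and 1.26 on the 12 regional arrays. Gad1 thus goes against the label on the whole brain arrays, although Gad2 (1.22 to 1.60) and Slc32a1 (1.02 to 1.38) were above the reference there. Of the 8 GABAergic markers, 6 were called higher and 2 lower than the reference in whole brain, so Gad1 was not the only marker called lower. Markers of postmitotic neurons were lower than in total brain in every group, at list means from -2.58 to -1.71. Less RNA per cell and fewer cells of a type cannot be told apart in such bulk samples.

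Against the total brain reference, potassium channel genes were called both higher and lower in every group. In whole brain sorts 35 of 80 members were higher (43.8%) and 29 lower (36.2%; limma, adjusted p under 0.05), against 45% and 34.7% of all genes. Olfactory bulb had 28 higher (35%) and 33 lower (41.2%), against 36.7% and 31.2% of all genes, the widest gap of the 5 groups. Cortex had 29 higher (36.2%) and 30 lower (37.5%), against 37.9% and 31.5%. Striatum had the same counts, against 36.1% and 31.4%. Cerebellum had 38 higher (47.5%) and 30 lower (37.5%), against 42.7% and 33.2%. These 5 comparisons share the reference. Median log2 ratios of the members ran from -0.03 in olfactory bulb to 0.15 in cerebellum, against 0.03 and 0.08 for all genes. With each array centred on its median in place of loess, the share of called members that was higher moved from 54.7% to 65.7% in whole brain, from 45.9% to 57.6% in olfactory bulb and from 49.2% to 60% in both cortex and striatum. In whole brain the median of all genes was 0.163 higher with the ratio that the scanner software gives.

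**Figure D1:**
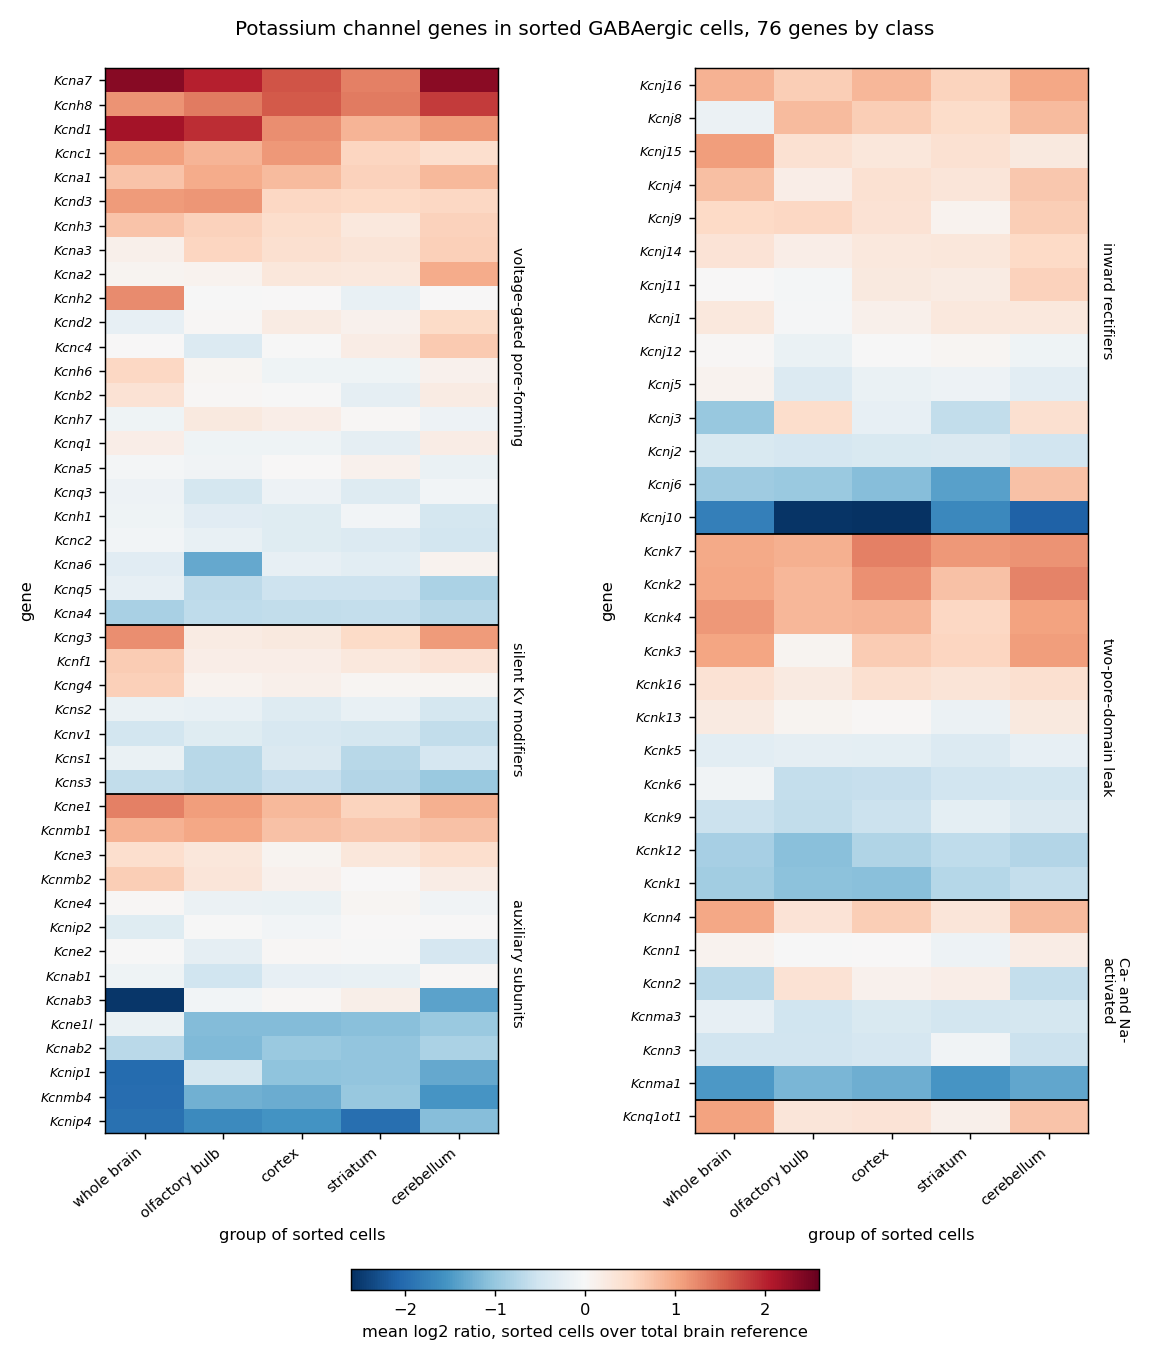
Mean log2 ratio of sorted cells over the total brain reference for 76 of the 80 tested members (rows, by class and then by mean over groups) in the 5 groups (columns; 4 whole brain arrays, 3 per region). Red is higher and blue lower in sorted cells; Kcna7 at 2.37 in whole brain is among the darkest red cells and Kcnj10 at -2.57 in cortex among the darkest blue.

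Among the 4 regions, 47 of 80 members differed in the moderated F test of limma, or 58.8%, against 57.3% of all genes. By the brightest probes, the region means of 7 called members (8.75%) lay at least 2-fold apart, against 3.78% of all genes. These were Kcnj6, Kcnab3, Kcna6, Kcnj3, Kcnd1, Kcna7 and Kcnc4. Region means of the dimmer probes ran only from -0.11 to 0.56 for Kcnj6, -0.01 to 0.41 for Kcna6 and -0.18 to 0.01 for Kcnj3. Of the 47 called members, 28 had their highest mean in cerebellum and 21 their lowest in striatum. For all called genes those shares were 40% and 29%, against 59.6% and 44.7% of the members.

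Cerebellum differed from the mean of the 3 forebrain regions in 40 members, with 28 higher (23.9% of all genes were) and 12 lower (16.6% of all genes). The higher members included 8 of 14 inward rectifiers and 5 of 11 leak channels, with none of either class lower. For Kcnj8, 1 of these rectifiers, the ratio difference of 0.19 lay in the reference channel (-0.38), and the sorted channel alone was lower in cerebellum (-0.20). Voltage-gated subunits went both ways, 8 higher and 5 lower of 27. Without cerebellum replicate 2, the brightest array, 33 members were called. On the cerebellar arrays the cerebellar granule lineage markers averaged 0.95 to 1.28, and the Purkinje and interneuron markers 0.68 to 0.93. In the forebrain regions those lists ran from -0.26 to 0.27 and from -0.82 to -0.46. Their part in the cerebellar differences was not tested.

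Olfactory bulb differed from the mean of cortex and striatum in 17 members, 9 higher (11.9% of all genes were) and 8 lower (11.4%). The scanner's own log ratio called 28. Leaving out olfactory bulb replicate 1 left 10 calls and leaving out replicate 2 left 9. The share of these calls that was higher was 52.9%, 70.6% with median centring and 36.4% from the sorted-cell channel alone. Cortex differed from striatum in 12 members, 8 higher (8.84% of all genes were) and 4 lower (9.82%). That count fell to 4 without cortex replicate 1, 3 without cortex replicate 3, 5 without striatum replicate 1 and 6 without striatum replicate 3 or with median centring. The share higher was 66.7%, 50% with median centring and 80% with scaling between arrays. Of 9 named differences between cortex and striatum, those of Kcnc1 and Kcnj10 kept their call under every alternative that was run.

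**Figure D2:**
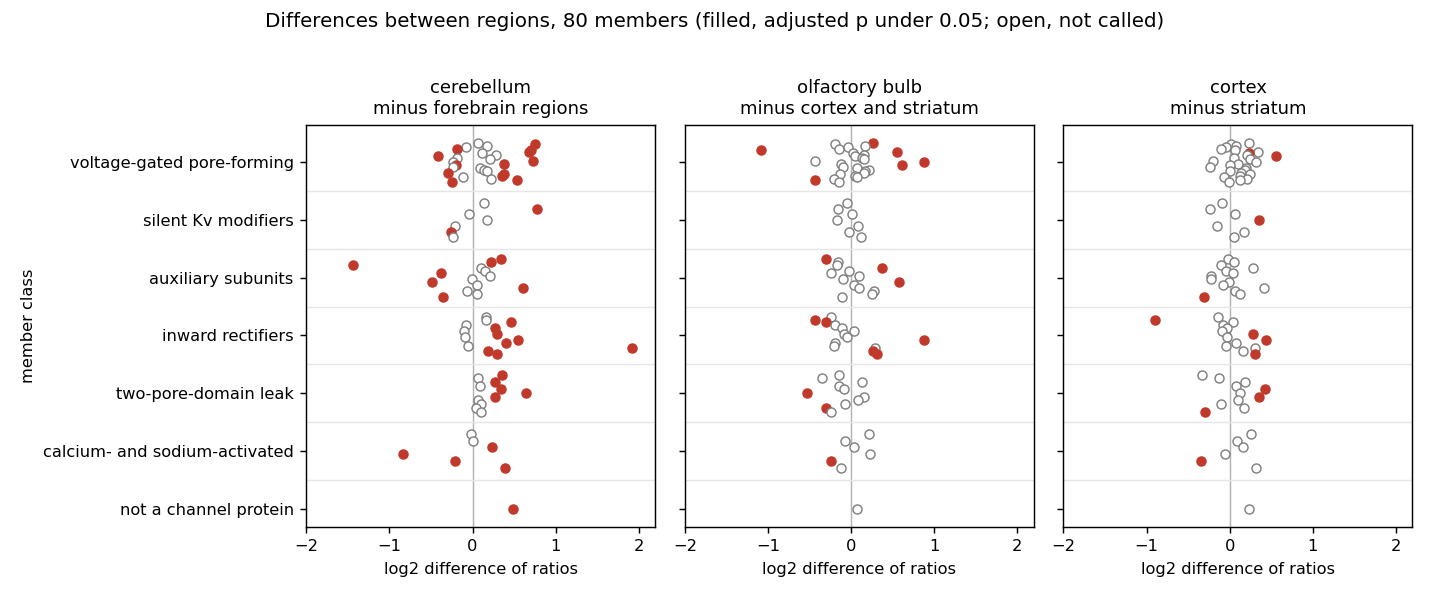
Log2 differences of the ratios for the 80 members by class (rows) in 3 comparisons between regions; each point is a gene, filled where called (limma, adjusted p under 0.05). In cerebellum against forebrain all 8 filled inward rectifiers lie right of 0, Kcnj6 farthest at 1.92, while Kcnab3 lies at -1.44.

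Kcnj6, a G-protein-gated inward rectifier, had the widest range between region means of the tested members, 2.17 on the log2 scale, then Kcnab3 (1.56). With the mean of both Kcnj6 probes the range was 1.41. Kcnj6 encodes GIRK2, the subunit mutated in the weaver mouse, in which cerebellar granule cells are lost. Its log2 ratio was 0.73, 0.93 and 0.60 on the 3 cerebellar arrays. It was -0.67, -1.22 and -1.02 in olfactory bulb, -0.92, -1.13 and -1.25 in cortex and -1.44, -1.36 and -1.44 in striatum. On the whole brain arrays Kcnj6 read -0.37, -1.07, -1 and -1.27. Cerebellum was thus the only group above the reference, and no cerebellar array overlapped with any other. Kcnj6 was 3.78-fold higher in cerebellum than in forebrain regions (log2 difference 1.92, SE 0.14; limma, adjusted p = 5.42e-09). In the sorted channel this probe was well above background on all 3 cerebellar arrays but on 1 array of each forebrain region, and the scanner's own log ratio gave a log2 difference of 4.19. The mean of both probes gave 1.28, and the dimmer probe was well above background in sorted cells on 3 of 16 arrays.

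Kcnj3 encodes GIRK1, which assembles with GIRK2 into the channel opened by G-protein-coupled receptors. Its log2 ratio was 0.40, 0.53 and 0.43 in olfactory bulb and 0.60, 0.35 and 0.31 in cerebellum. It was -0.04, -0.23 and -0.37 in cortex and -0.62, -0.59 and -0.74 in striatum. Whole brain arrays read -0.81, -0.88, -1.09 and -1.19, below all regional values. Bulb and cerebellum lay above the reference and the other groups below it, and the striatal arrays did not overlap with the cortical ones. Kcnj3 was higher in olfactory bulb than in cortex and striatum by 0.88 (SE 0.10; limma, adjusted p = 3.46e-06; 0.53 with the mean of both probes) and in cortex than in striatum by 0.44 (SE 0.11, adjusted p = 0.0119). The cortex call was lost with the mean of both probes (0.23, adjusted p = 0.0683), with median centring (0.37, adjusted p = 0.0955) and from the sorted channel alone (0.50, adjusted p = 0.0867). Without cortex replicate 1 or striatum replicate 3 its adjusted p was 0.0769 or 0.0533. The dimmer probe of Kcnj3 varied little, with group means from -0.18 to 0.15.

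Both genes stood above the reference in cerebellum and below it in striatum and cortex, so the bases just before their annotated starts are shown, beside those of Kcna6, whose low group was the olfactory bulb. They come from RefSeq, build GRCm38.p6, which the array files do not name. Each is the 250 bases before a start, read 5′ to 3′ on the gene's strand, and Kcnj6 has 2 starts in the table. Capitals mark any match, on either strand, to 1 of 4 words. The GC box was searched as GGGCGG. The E-box was searched as CAGCTG. The homeodomain core was searched as TAATTA. The TATA box was searched as TATAAA, and no matches overlap in these windows. The windows are chr2:55435720-55435969 on the plus strand for Kcnj3, and on the minus strand chr16:94997697-94997946 for start 1 and chr16:94856691-94856940 for start 2 of Kcnj6, and chr6:126740675-126740924 for Kcna6.
Kcnj3: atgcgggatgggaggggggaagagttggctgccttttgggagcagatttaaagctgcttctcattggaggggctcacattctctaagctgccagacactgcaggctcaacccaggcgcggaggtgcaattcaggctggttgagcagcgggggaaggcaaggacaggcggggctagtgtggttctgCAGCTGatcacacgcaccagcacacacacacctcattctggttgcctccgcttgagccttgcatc
Kcnj6 start 1: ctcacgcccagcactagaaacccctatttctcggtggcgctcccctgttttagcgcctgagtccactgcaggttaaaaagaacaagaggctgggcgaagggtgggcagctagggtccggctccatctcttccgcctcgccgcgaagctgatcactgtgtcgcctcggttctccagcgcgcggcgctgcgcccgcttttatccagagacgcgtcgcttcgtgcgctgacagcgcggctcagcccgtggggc
Kcnj6 start 2: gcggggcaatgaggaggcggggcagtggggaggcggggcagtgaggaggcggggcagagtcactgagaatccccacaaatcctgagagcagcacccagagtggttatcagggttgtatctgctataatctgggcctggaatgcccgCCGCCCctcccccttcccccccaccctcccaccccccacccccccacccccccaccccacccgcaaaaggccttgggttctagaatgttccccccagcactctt
Kcna6: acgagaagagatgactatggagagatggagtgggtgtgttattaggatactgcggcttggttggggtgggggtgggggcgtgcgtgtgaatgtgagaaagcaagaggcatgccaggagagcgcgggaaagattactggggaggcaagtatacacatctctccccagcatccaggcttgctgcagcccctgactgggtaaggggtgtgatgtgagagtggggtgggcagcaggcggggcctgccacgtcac
Kcnj3 held 1 E-box word and start 2 of Kcnj6 held 1 GC box word, while the other windows held none of the 4 words. GC content was 58.4% for Kcnj3, 64% and 65.6% for Kcnj6 and 58.8% for Kcna6. Promoters were found for 59 members (81 windows), of which 45.7% held the GC box word, 24.7% the E-box word, 0% the homeodomain word and 2.47% the TATA word. Over all 32851 promoter windows those shares were 32.7%, 13%, 4.84% and 12.4%. These matches describe letters only.

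The remaining G-protein-gated subunits moved less. Kcnj9, which encodes GIRK3, was above the reference on average in every group, at 0.52 in whole brain, 0.54 in olfactory bulb, 0.38 in the cortex, 0.09 in striatum and 0.64 in cerebellum. It was higher in cerebellum than in forebrain by 0.30 (SE 0.08; limma, adjusted p = 0.00731) and in olfactory bulb than in cortex and striatum by 0.31 (SE 0.09, adjusted p = 0.0162). Kcnj5, which encodes GIRK4, ran from -0.35 in olfactory bulb to 0.09 in whole brain. It did not pass the F test over the regions (limma, adjusted p = 0.206).

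Kcnj10 encodes Kir4.1, the main potassium channel of astrocytes, and was the lowest inward rectifier against the reference. Its log2 ratio was -2.31, -2.70 and -2.62 in olfactory bulb and -2.29, -2.69 and -2.71 in cortex. It was -1.63, -1.63 and -1.73 in striatum, -2.03, -2.14 and -2.11 in cerebellum and -1.77, -1.81, -1.75 and -1.79 in whole brain. All arrays were far below the reference, and striatum was the least low region without overlap with cortex. Kcnj10 was lower in cortex than in striatum by 0.90 on the log2 scale (difference -0.90, SE 0.11; limma, adjusted p = 4.02e-05), and the scanner's own log ratio gave -1.78. The 8 markers of astrocytes and radial glia averaged -1.89 to -1.71 in cortex, -1.12 to -1.07 in striatum and -1.33 to -1.18 in olfactory bulb, with all 8 well above background in sorted cells, and their part in the Kcnj10 difference was not tested.

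The ATP-sensitive channels have their pores from Kcnj11 (Kir6.2) and Kcnj8 (Kir6.1), and Kcnj8 is also known from pericytes. Kcnj8 was 0.94, 0.86 and 0.66 in olfactory bulb, 0.59, 0.66 and 0.67 in cortex, 0.39, 0.48 and 0.56 in striatum and 0.80, 0.83 and 0.87 in cerebellum. On the 4 whole brain arrays it was -0.18, -0.14, -0.16 and -0.12, below every regional array. The dimmer probe of Kcnj8, well above background in sorted cells on all 16 arrays, did not show this. It averaged 0.19 in whole brain against 0.12, 0, 0.04 and 0.44 in olfactory bulb, cortex, striatum and cerebellum. The pericyte and mural markers averaged between -1.27 and -0.79 over all arrays, below the reference in each group. Kcnj11 rose in cerebellum, to a mean of 0.60 (SD 0.04, n = 3) from -0.05 in olfactory bulb, 0.26 in cortex and 0.22 in striatum (difference from forebrain 0.46, SE 0.08; limma, adjusted p = 0.000144). Kcnj4, a strong rectifier, was likewise higher in cerebellum by 0.40 (SE 0.08, adjusted p = 0.00104), Kcnj16 by 0.30 (SE 0.07, adjusted p = 0.00308) and Kcnj14 by 0.27 (SE 0.07, adjusted p = 0.0055). Kcnj12, Kcnj1 and Kcnj15 gave no call in that comparison. Kcnj2 was not well above background in sorted cells and stood at least 1.24-fold to 1.40-fold below the reference across groups. The bounds were 1.27-fold in whole brain, 1.32-fold in olfactory bulb and 1.29-fold in striatum.

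Among voltage-gated subunits, the highest ratios belonged to Kcna7, Kcnd1 and Kcnh8. Kcna7 encodes a Kv1 subunit best known from muscle. It read 2.34, 2.43, 2.53 and 2.17 in whole brain, 2.03 and 2.01 on the 2 usable olfactory bulb arrays, 1.75, 1.51 and 1.67 in cortex, 1.37, 1.14 and 1.39 in striatum and 2.2, 2.7 and 2.12 in cerebellum. Every array was at least 2-fold above the reference, and striatum was lowest with no overlap with cortex. In whole brain Kcna7 was 5.16-fold above the reference (log2 ratio 2.37, SE 0.08; limma, adjusted p = 2.17e-15). Its excess in olfactory bulb over cortex and striatum, 0.55 (SE 0.13, adjusted p = 0.00567), lay mostly in the reference channel, since the sorted channel alone gave 0.13 (adjusted p = 0.676). Leaving out olfactory bulb replicate 2 gave an adjusted p of 0.0524.

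Kcnd1 (Kv4.1) and Kcnd3 (Kv4.3), pore subunits of the rapidly inactivating A-type current, were both highest in whole brain and olfactory bulb. Kcnd1 read 2.14, 2.09, 2.2 and 2.25 in whole brain and 2.24, 2.09 and 1.42 in olfactory bulb. It read 1.37, 1.12 and 1.11 in cortex, 0.80, 0.91 and 0.91 in striatum and 1.01, 1.13 and 1.18 in cerebellum. The bulb arrays lay above all other regional arrays, replicate 3 by a narrow margin. The difference between olfactory bulb and the mean of cortex and striatum was 0.88 for Kcnd1 (SE 0.13; limma, adjusted p = 6.21e-05). Kcnd3 gave 1.15, 1.18 and 1.08 in olfactory bulb, between 0.48 and 0.59 on the cortical and striatal arrays and 0.58, 0.58 and 0.43 in cerebellum (difference of bulb from cortex and striatum 0.61, SE 0.07, adjusted p = 4.94e-06). Kcnd2 (Kv4.2) was near the reference in the forebrain, at 0.04, 0.21 and 0.11, and at 0.49 in cerebellum, which was higher than forebrain by 0.38 (SE 0.10, adjusted p = 0.00742). Its dimmer probe, well above background in sorted cells on all 16 arrays, read -1.83 in cerebellum against -1.89, -1.82 and -1.72 in olfactory bulb, cortex and striatum, so the call rests on 1 of 2 probes.

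Kcna6 encodes Kv1.6, a delayed rectifier subunit. Its log2 ratio was -1.59, -1.36 and -1.04 in olfactory bulb. It was -0.18, -0.29 and -0.17 in cortex, -0.65, -0.14 and -0.05 in striatum, 0.21, -0.10 and 0.19 in cerebellum and -0.43, -0.36, -0.40 and 0.04 in whole brain. Olfactory bulb alone was far below the reference and overlapped with no other group. The difference from cortex and striatum was -1.08 (SE 0.14; limma, adjusted p = 1.84e-05), or -0.61 with the mean of both probes of the gene. The dimmer probe of Kcna6 ranged from -0.01 in olfactory bulb to 0.41 in cerebellum. Kcna1 (Kv1.1), which lies next to it in the genome, showed no such low, with 0.89, 0.96 and 1.04 in olfactory bulb, and its ratio was higher there than in cortex and striatum by 0.26 (SE 0.07, adjusted p = 0.0171). That difference lay mostly in the reference channel (-0.22), since the sorted channel alone gave 0.04.

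Kcna2 (Kv1.2), an axonal partner of Kv1.1, was 1.06, 0.87 and 0.96 in cerebellum. It lay between -0.01 and 0.40 on the 9 forebrain arrays and between -0.08 and 0.21 in whole brain. Cerebellum stood apart without overlap (difference from forebrain 0.75, SE 0.08; limma, adjusted p = 1.01e-06). Kcna3 (Kv1.3), its neighbour in the genome, averaged 0.61 in cerebellum and 0.55, 0.42 and 0.34 in olfactory bulb, cortex and striatum, with no call for cerebellum against forebrain. Kcna4 (Kv1.4) averaged between -0.84 and -0.61 in all groups. Kcna5 was not well above background in either channel on the whole brain, olfactory bulb and cortex arrays.

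The Kv3 genes, known for fast spiking, differed in direction. Kcnc1 (Kv3.1) read 1.06, 1.14, 1.19 and 0.86 in whole brain, 0.99, 0.88 and 0.80 in olfactory bulb and 1.22, 1.03 and 1.1 in cortex. It read 0.58, 0.50 and 0.59 in striatum and 0.37, 0.46 and 0.49 in cerebellum. All arrays were above the reference, and cortex lay above striatum without overlap (difference 0.56, SE 0.09; limma, adjusted p = 0.00063). Kcnc4 (Kv3.4) was highest in cerebellum, at 0.58, 0.93 and 0.53, and lowest in olfactory bulb, at -0.52, -0.23 and -0.29. Cortex gave 0.02, 0.00 and -0.05, striatum -0.07, 0.27 and 0.37, and whole brain -0.38, -0.12, -0.16 and 0.66, the last array apart from the other 3. The Kcnc4 difference of cerebellum from forebrain was 0.73 (SE 0.15, adjusted p = 0.000923). Kcnc2 (Kv3.2) averaged -0.48 to -0.07 in the groups.

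Kcnh8 (Elk1), of the ether-a-go-go family, was above the reference in every group, at means of 1.16 in whole brain, 1.35 in olfactory bulb, 1.60 in the cortex, 1.36 in striatum and 1.82 in cerebellum. Kcnh2 (ERG1), best known from the heart, was 1.22, 1.31, 1.32 and 1.04 in whole brain, whereas all 12 regional arrays lay between -0.21 and 0.10. Kcnh3 averaged 0.28 to 0.74 in the groups. Kcnh6, a second ERG gene, averaged 0.53 in whole brain and between -0.12 and 0.12 in the regions, and Kcnh7, the third, between -0.14 and 0.26. Kcnh1 averaged -0.45 to -0.07.

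The KCNQ genes underlie the M current that restrains repetitive firing. Kcnq3 (Kv7.3) was below the reference in group mean, between -0.45 and -0.08. Kcnq5 ran from -0.83 in cerebellum to -0.21 in whole brain. Kcnq1 averaged -0.24 to 0.20 in the groups. Kcnq1ot1, the RNA overlapping Kcnq1, averaged 1.04 in whole brain, 0.75 in cerebellum and 0.13 to 0.36 in the forebrain regions. Kcnb2 (Kv2.2), a delayed rectifier, averaged -0.23 to 0.37.

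**Figure D3:**
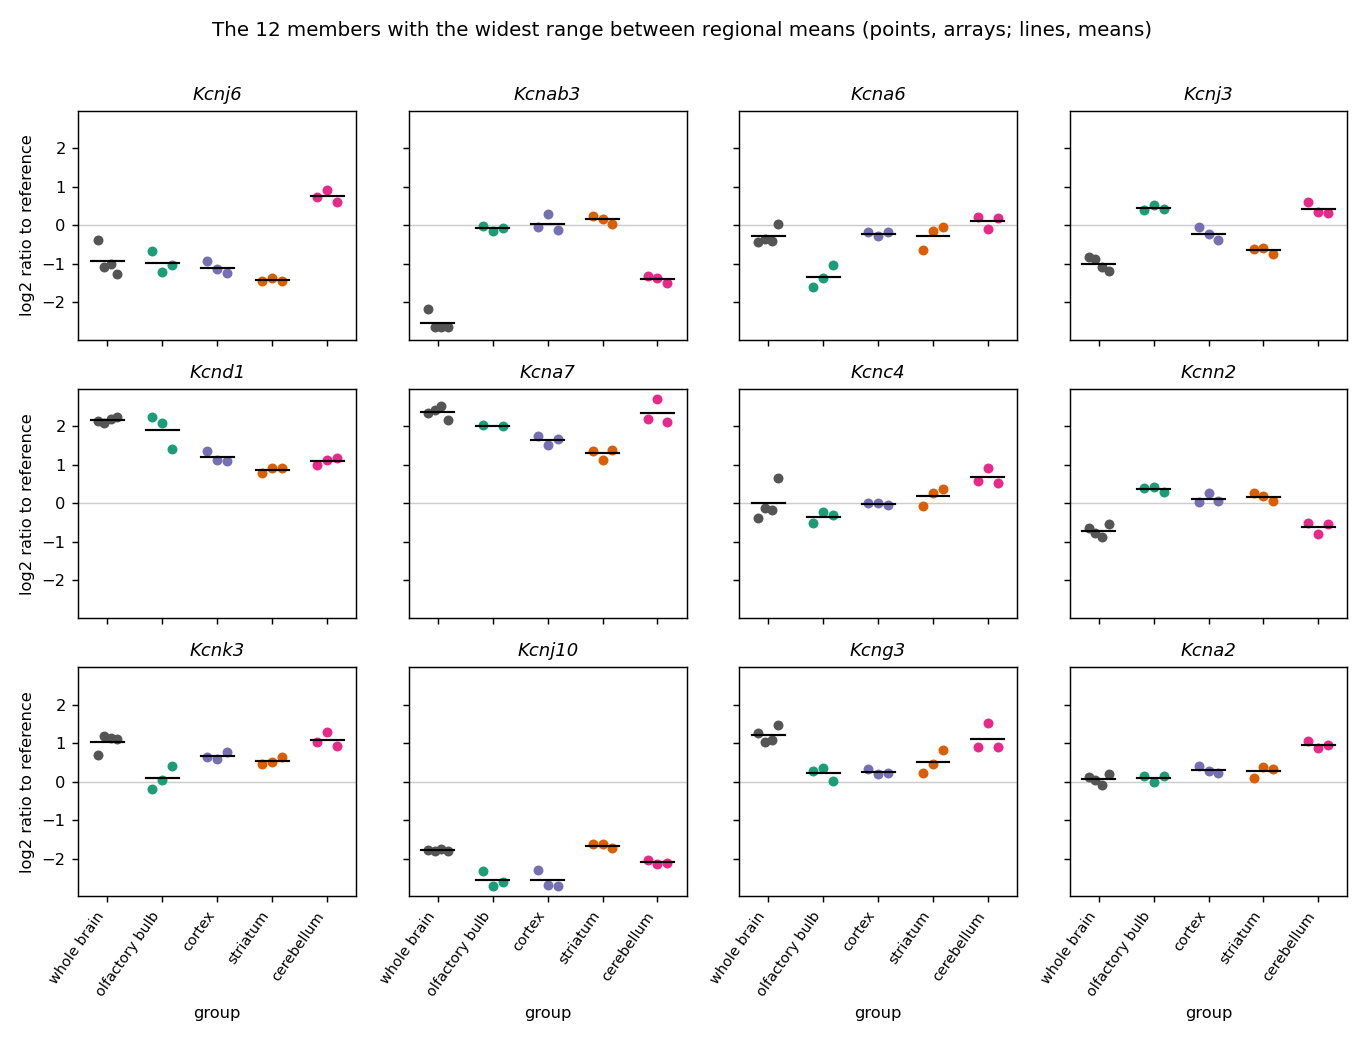
Log2 ratio to the total brain reference on every array (points) and group means (lines) for the 12 members with the widest range between region means, with whole brain in grey. Kcnj6 is above 0 on the cerebellar arrays only, Kcna6 is lowest in olfactory bulb, and Kcnab3 is low in cerebellum (-1.31 to -1.51) and whole brain (-2.18 to -2.65).

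Kcng3 had the highest mean ratio of the silent subunits in each group, 1.21 in whole brain and 1.11 in cerebellum at the top. Kcng3 (Kv6.3), a modifier of Kv2 channels, read 0.91, 1.51 and 0.91 in cerebellum and 1.26, 1.02, 1.07 and 1.47 in whole brain. It read 0.28, 0.36 and 0.01 in olfactory bulb, 0.34, 0.21 and 0.23 in cortex and 0.23, 0.46 and 0.81 in striatum. Cerebellum and whole brain lay above all forebrain arrays. The difference of cerebellum from forebrain was 0.78 for Kcng3 (SE 0.13; limma, adjusted p = 0.000126), 1.30 with the scanner's own log ratio and 0.38 with the mean of both probes, of which the dimmer was well above background in sorted cells on 6 of 16 arrays. Kcnf1 averaged 0.17 to 0.65 and Kcng4 0.06 to 0.62, both highest in whole brain. A second probe of Kcnf1, nearly as bright, was well above background in sorted cells on all 16 arrays. It put Kcnf1 below the reference in every group, from -1.54 in cerebellum to -0.51 in olfactory bulb, with -0.91 in whole brain. Kcns1 averaged -0.73 to -0.18, Kcns2 -0.45 to -0.18 and Kcns3 -0.96 to -0.60. Kcns3 was not well above background in sorted cells of olfactory bulb, and stood at least 1.64-fold below the reference there. Its whole brain mean rests on 2 arrays. Kcns1 was higher in cortex than in striatum by 0.35 (SE 0.11, adjusted p = 0.0271), a call lost with median centring (adjusted p = 0.191) and without any of 5 arrays in turn (adjusted p 0.0528 to 0.0965).

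Several auxiliary subunits were far below the reference, and 7 of 14 were called lower in each of olfactory bulb, cortex and cerebellum and 6 of 14 in whole brain and striatum. Of all genes 31.2% to 34.7% were called lower in these groups. Kcnab3 encodes a beta subunit of Kv1 channels. It was -2.18, -2.64, -2.65 and -2.65 in whole brain and -1.31, -1.38 and -1.51 in cerebellum. In the forebrain it was near the reference, at -0.02, -0.14 and -0.06 in olfactory bulb, -0.05, 0.29 and -0.12 in cortex and 0.25, 0.17 and 0.04 in striatum. Cerebellum and whole brain were each low and apart from the forebrain arrays and from each other. Kcnab3 was 2.72-fold lower in cerebellum than in forebrain (log2 difference -1.44, SE 0.10; limma, adjusted p = 3.15e-09). Kcnab2 averaged -1.15 to -0.70 and Kcnab1 -0.51 to 0.03.

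The Kv channel interacting proteins are calcium sensors bound to Kv4 channels. Kcnip1 was -2.13, -2.15, -2.08 and -1.68 in whole brain and -0.44, -0.46 and -0.49 in olfactory bulb. It was -1.11, -1.11 and -0.90 in cortex, -1.09, -0.85 and -1.17 in striatum and -1.15, -1.51 and -1.35 in cerebellum. Kcnip1 was below the reference on every array and least so in olfactory bulb, by 0.58 against cortex and striatum (SE 0.11; limma, adjusted p = 0.000739). Kcnip4 averaged -1.96 in striatum, -1.93 in whole brain, -1.66 in olfactory bulb, -1.55 in cortex and -1.11 in cerebellum, where it was higher than in forebrain by 0.61 (SE 0.14, adjusted p = 0.00158). The dimmer probe of Kcnip4, well above background on all 16 arrays, did not show this, at -1.20 in cerebellum against -1.04, -0.90 and -1.22 in olfactory bulb, cortex and striatum. Kcnip2 lay within -0.31 to 0.02 in group mean.

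Kcnmb4 and Kcnmb1 are beta subunits of the BK channel and lay on opposite sides of the reference. Kcnmb4, the neuronal form, was -1.84, -2.04, -2.01 and -2.02 in whole brain and averaged -1.25 in olfactory bulb, -1.30 in the cortex, -0.99 in striatum and -1.53 in cerebellum. Kcnmb1, the smooth muscle form, averaged 0.91, 1.01, 0.76, 0.70 and 0.76 in the same order, while its dimmer probe was well above background in sorted cells on 1 of 16 arrays. Kcnmb2 averaged 0.00 to 0.64. Of the Kcne subunits, Kcne1 was above the reference at 1.32 in whole brain and 0.57 to 1.08 in the regions. Kcne1l was not well above background in sorted cells of olfactory bulb and cortex, and stood at least 2.18-fold and 2.15-fold below the reference there. Kcne2 averaged -0.44 to 0.03, Kcne3 0.07 to 0.43 and Kcne4 -0.17 to 0.06. The lower level of Kcne2 in cerebellum than in forebrain (-0.38, SE 0.11; limma, adjusted p = 0.00862) was lost with median centring (adjusted p = 0.0726) and without cerebellum replicate 2 (adjusted p = 0.0928).

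By their brightest probes, the leak channels with the highest ratios were Kcnk7, Kcnk2, Kcnk4 and Kcnk3. Kcnk2 (TREK-1) averaged 1.00 in whole brain, 0.87 in olfactory bulb, 1.18 in the cortex, 0.76 in striatum and 1.28 in cerebellum, and Kcnk4 (TRAAK), a related mechanically gated channel, averaged 1.13, 0.86, 0.89, 0.54 and 1.04. Kcnk7 averaged 0.99, 0.92, 1.31, 1.13 and 1.16. The dimmer probe of Kcnk7 read 1.1 in whole brain, but 0.31, -0.02, 0.1 and 0 in olfactory bulb, cortex, striatum and cerebellum. In the same order of groups, a dimmer probe of Kcnk4 read 0.06, -0.3, -0.1, -0.27 and 0, and its dimmest probe 0.21, 0.21, 0.57, 0.13 and 0.46. Each was well above background in sorted cells on all 16 arrays. The high ratios of Kcnk7 in the regions and of Kcnk4 in every group thus rest on the brightest probe. Kcnk3 encodes the acid-sensitive channel TASK-1. It read -0.19, 0.03 and 0.41 in olfactory bulb, 0.64, 0.59 and 0.78 in cortex, 0.47, 0.52 and 0.65 in striatum, 1.02, 1.29 and 0.93 in cerebellum and 0.69, 1.18, 1.14 and 1.11 in whole brain. Olfactory bulb was lowest and cerebellum highest of the regions, with no overlap of either with the rest. The Kcnk3 difference of cerebellum from forebrain was 0.64 (SE 0.12; limma, adjusted p = 0.000254). That of olfactory bulb from cortex and striatum was -0.53 (SE 0.12, adjusted p = 0.00458), with the call lost under median centring (-0.32, adjusted p = 0.0642) and without olfactory bulb replicate 1 (adjusted p = 0.0524). The mean of both probes gave -0.29. The dimmer probe of Kcnk3, well above background on all 16 arrays, was lowest in cerebellum, at -0.48 against -0.30, -0.18 and -0.33 in olfactory bulb, cortex and striatum, whereas cerebellum was the highest region with the brighter probe.

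Kcnk9, the TASK-3 gene that pairs with TASK-1, was below the reference at -0.64 to -0.25 in group mean. Its difference of cortex from striatum (-0.30, SE 0.10; limma, adjusted p = 0.0452) lay in the reference channel, since the sorted channel alone gave 0.28 (adjusted p = 0.416), and the call was lost without any of 9 arrays in turn. The calls of Kcnk2 (0.42, SE 0.12, adjusted p = 0.0263) and Kcnk4 (0.35, SE 0.09, adjusted p = 0.0117) in cortex over striatum were lost with median centring, at adjusted p = 0.247 and 0.274. Without 1 array the call of Kcnk4 was lost for cortex replicate 3 (adjusted p = 0.0613), and that of Kcnk2 for any cortical array or striatum replicate 1 (adjusted p 0.0523 to 0.123). That of Kcnk7 in olfactory bulb below cortex and striatum (-0.30, SE 0.11, adjusted p = 0.0442) fell to -0.02 (adjusted p = 0.89) with the mean of both probes and was lost without any of 9 arrays in turn (adjusted p 0.0519 to 0.225). Kcnk1 (TWIK-1) averaged -1.08 to -0.61 and Kcnk12 -1.08 to -0.66. Kcnk6 averaged -0.62 to -0.10, Kcnk5 -0.36 to -0.22, Kcnk13 -0.15 to 0.26 and Kcnk16 0.24 to 0.42. The dimmer probe of Kcnk5 lay above the reference in whole brain (0.58) and cerebellum (0.45). It averaged 0.02, -0.07 and -0.10 in olfactory bulb, cortex and striatum, and was well above background in sorted cells on all 16 arrays.

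Of the calcium-activated channels, Kcnma1, the pore of the BK channel, was far below the reference in every group, at means of -1.49 in whole brain, -1.18 in olfactory bulb, -1.27 in the cortex, -1.53 in striatum and -1.35 in cerebellum. Kcnn2 (SK2), of the small-conductance channels that follow the spike, changed side between regions. It read 0.41, 0.43 and 0.30 in olfactory bulb, 0.03, 0.27 and 0.06 in cortex and 0.27, 0.20 and 0.07 in striatum. It read -0.52, -0.80 and -0.54 in cerebellum and -0.63, -0.78, -0.88 and -0.53 in whole brain. The forebrain arrays all lay above the reference and the cerebellar and whole brain arrays below it, without overlap. Kcnn2 was lower in cerebellum than in forebrain by 0.84 on the log2 scale (difference -0.84, SE 0.09; limma, adjusted p = 5.06e-07). The scanner's own log ratio gave -1.35. Its dimmer probe also set cerebellum below the forebrain, at -0.54 against 0.48, 0.56 and 0.67 in the forebrain regions.

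Kcnn3 (SK3) was -0.08, -0.09 and -0.09 in striatum and between -0.66 and -0.35 on every other array. Its difference of cortex from striatum (-0.34, SE 0.09; limma, adjusted p = 0.0138) lay in the reference channel, since the sorted channel alone gave 0.03 (adjusted p = 0.914), and the call was lost without cortex replicate 3 (adjusted p = 0.0657). Kcnn4, the intermediate-conductance channel, averaged 1.01 in whole brain, 0.83 in cerebellum and 0.32 to 0.64 in the forebrain regions. Kcnn1 (SK1) lay between -0.13 and 0.19. Kcnma3, in this class by symbol alone, lay between -0.51 and -0.22.

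Whole brain sorts differed from the mean of the 4 regions in 45 members, 31 higher (31.1% of all genes were) and 14 lower (30.6%). All whole brain arrays were scanned in another scan batch than all regional arrays, so region and scan batch cannot be told apart here, and Gad1 was lower by 2.34 on the log2 scale in the same comparison. The highest called member was Kcnh2, 2.41-fold above the regions (log2 difference 1.27, SE 0.06; limma, adjusted p = 8.13e-13). Kcnd1 was higher by 0.89 (SE 0.10, adjusted p = 2.48e-07), Kcnj15 by 0.74 (SE 0.06, adjusted p = 1.36e-09), and Kcng3 by 0.68 (SE 0.11, adjusted p = 3.34e-05). The fitted difference of Kcne1l was 0.90 (SE 0.10, adjusted p = 3.06e-07), but in sorted cells of olfactory bulb and cortex the gene was not well above background, so its size is not exact, and the scanner's own log ratio put it at 2.35. The lowest was Kcnab3, 4.63-fold below (-2.21, SE 0.09, adjusted p = 3.58e-14), then Kcnip1 (-1.04, SE 0.09, adjusted p = 2.55e-09), Kcnj3 (-0.99, SE 0.08, adjusted p = 1.23e-09), Kcnj8 (-0.84, SE 0.06, adjusted p = 2.05e-10) and Kcnn2 (-0.72, SE 0.08, adjusted p = 6.87e-08). With the mean of both probes Kcnj3 was at -0.37, Kcnj8 at -0.40, Kcnj15 at 0.47 and Kcng3 at 0.43, while the scanner's own log ratio put Kcng3 at 1.09. The share of called members that was higher was 68.9%, and 58% from the sorted channel alone.

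**Figure D4:**
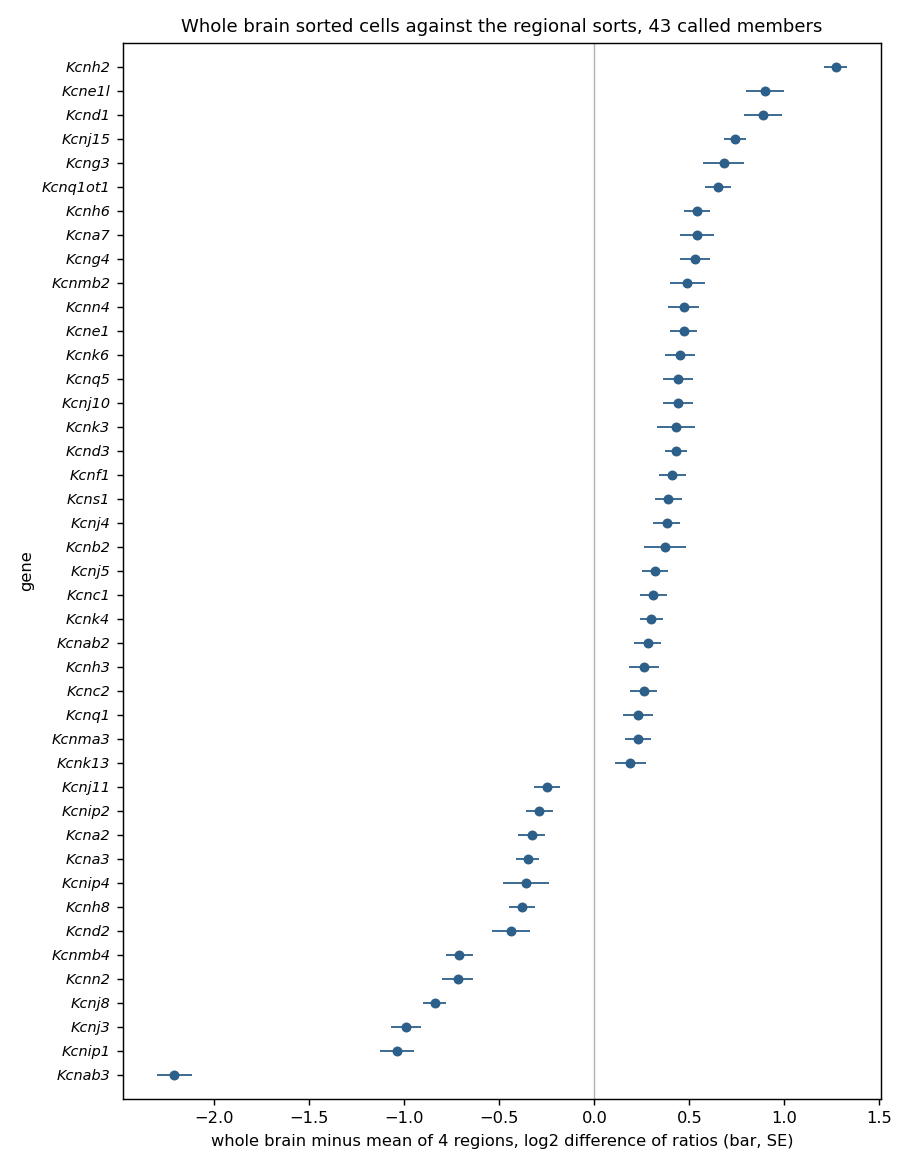
Log2 difference between the whole brain sorts and the mean of the 4 regional sorts for 43 of the 45 called members (points; bars are SE of the limma fit). Kcnh2 at 1.27 and Kcnab3 at -2.21 lie at the ends, and 30 of the 43 lie right of 0; Kcne1l was not well above background in sorted cells of 2 regions.

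Genes that work with potassium channels were mostly called below the reference. Of 21 such partner genes, 17 were tested, 1 did not pass the filter, and Dlg1, Dlg2 and Dlg4 were not matched by name. The counts higher and lower than the reference were 2 and 13 for whole brain, 2 and 12 for olfactory bulb, 2 and 14 for cortex, 1 and 14 for striatum and 2 and 14 for cerebellum, whereas 36.1% to 45% of all genes were higher and 31.2% to 34.7% lower. Dpp6, an auxiliary protein of Kv4 channels, was at -1.38, -2.06, -1.52, -1.58 and -1.02 in that order of groups. Hcn2, a cation channel opened by hyperpolarisation, was above the reference at 0.98, 0.62, 0.40, 0.34 and 0.47. Between cerebellum and forebrain 7 of the 17 partners were higher (23.9% of all genes were) and 2 lower (16.6%), with Dpp6 higher by 0.70 (SE 0.08; limma, adjusted p = 1.93e-06) and the sodium-potassium pump subunit Atp1b1 lower (-1.13, SE 0.08, adjusted p = 6.05e-09).

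Several members lie next to each other in the RefSeq gene order, and their ratios are given side by side. Kcnj9 and Kcnj10 are adjacent, and in cortex their means were 0.38 and -2.57. Kcnip1 and Kcnmb1 are adjacent, with -2.01 and 0.91 in whole brain. Kcnj6 and Kcnj15 are adjacent, with 0.76 and 0.26 in cerebellum and -1.41 and 0.39 in striatum. Kcnj16 and Kcnj2, at 0.91 and -0.39 in whole brain, form a further pair.

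Of the members, 28 had several probes. The chosen probe and another probe of the same gene had opposite signs of the group mean in 13 of them in whole brain, olfactory bulb and striatum and in 15 in cortex and cerebellum. In no group were both beyond 2-fold in opposite directions. Values for these members therefore describe the brightest probe.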

How the data were processed

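Each deposited array file gives 2 channels of spot intensity (mean) and local background intensity (median), read per the file headers by Agilent Feature Extraction 8.1.1.1, and the authors' log10 ratio of sorted cells over reference from that software. Values in the deposited series table lie within 0.005 of that log10 ratio, which is called the scanner's own log ratio. Its column medians ran from 0 to 0.0334 and no further centring was found. Log2 ratios were computed here from the intensities with limma 3.58.1 (R 4.3.3 and the data.table package, version 1.17.8, figures with Python 3.11.15 and matplotlib 3.10.9): normexp background correction with offset 50, which shrinks ratios of dim spots towards 0, and loess within each array, giving weight 0 to controls and to outlier spots, which were left out. There was no scaling between arrays. Genes took the array's names and their brightest probe, and were tested if well above background on at least 3 sorted or 8 reference arrays. All 16 arrays were fitted with 5 group means (lmFit, eBayes), Benjamini-Hochberg adjusted over all genes and called under 0.05. The steps were tested on simulated data. SE is that of limma, whose precision the number of arrays limits. Where a side was not well above background on any array, its signals were raised to the lowest signal well above background on the array and the fold is a bound.

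The members, the partner and marker lists and the tests were chosen with earlier results of these data known. Genes named with every array are the 12 called members with the widest range between region means. Those named with means are the 6 highest and 6 lowest called members of each comparison with the reference whose every array shows the direction, and the 5 highest and 5 lowest called members of each comparison between groups. Further members serve as examples of their class. Some genes that this rule takes are not reported here, though counts include them. Alternatives were the scanner's ratio, offset 10, median centring, scaling between arrays, other filters and probe rules, an intensity trend, a replicate block, regional arrays alone, the sorted channel alone and leaving out each array.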

Additional observations from a re-analysis of the deposited data

Results flagged for a closer look

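Potassium channel genes called above the reference in 1 region and below it in another, with the difference itself called (limma, Benjamini-Hochberg adjusted over all genes), are described for 5 genes over 6 pairs of regions. The log2 difference furthest apart was -2.17 for Kcnj6 in striatum minus cerebellum (adjusted p = 2.60e-08) and 1.1 for Kcnj3 in olfactory bulb minus striatum (adjusted p = 1.09e-06). It was -1.03 for Kcnc4 (adjusted p = 0.000285) and 1 for Kcnn2 (adjusted p = 8.45e-07), both in olfactory bulb minus cerebellum. For Kcnq1 it was -0.44 in striatum minus cerebellum (adjusted p = 0.00452). The weaver gene Kcnj6 and Kcnn2 (SK2) moved to opposite sides in cerebellum.

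Among the 4 whole brain arrays, 1 array stood apart from the other 3 in 7 of 35 named members. The cutoff marks about 1 in 20 genes by chance where values are independent and normally spread. The 35 members were read on the same arrays and picked by their calls, so an excess over chance was not tested. Replicate 1 was the one apart for Kcnab3 (-2.18), Kcnk3 (0.69), Kcnmb1 (0.44) and Kcnmb4 (-1.84). Replicate 4 was apart for Kcna6 (0.04), Kcnip1 (-1.68) and Kcnk9 (-0.73). For Kcnab3, Kcnmb4 and Kcnip1 the apart array was still far below the reference.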

How the results depend on the processing

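Counts of called members stayed within 1.5 times their value under the alternatives run, except that olfactory bulb against cortex and striatum (17) gave 28 with the scanner's log ratio and 9 to 21 with 1 array left out, and cortex against striatum (12) gave 6 with median centring and 3 to 15 with 1 array left out. From the sorted channel alone, 2 cortex to striatum differences reversed, Kcnn3 to 0.03 and Kcnk9 to 0.28. Among named members, the call was lost under at least 1 alternative for 1 of 10 in cerebellum against forebrain, 5 of 10 in olfactory bulb against cortex and striatum and 7 of 9 in cortex against striatum, and for 0 of 10 in whole brain against regions. Same-numbered replicates of different regions deviated from their group means with correlations from -0.112 to 0.231, and differently numbered ones from -0.232 to 0.241. These overlapping ranges gave no sign that the numbers pair the samples, but they cannot show whether regions share animals. The replicate block gave 63, 62, 60, 60 and 69 calls against the reference in whole brain, olfactory bulb, cortex, striatum and cerebellum, and 43, 21, 14, 46 and 53 for cerebellum against forebrain, olfactory bulb against cortex and striatum, cortex against striatum, whole brain against regions and among regions. Dim signal over background limits Kcnj6, Kcne1l, Kcns3, Kcnj2 and Kcnv1.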
